A study of Homo sapiens with 18 samples.

Results

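CD44, SOX2 and ALDH2 are 3 genes used as markers of stem-like cells in breast tumours, and their RNA is described here across 3 breast cancer cell lines given antisense oligonucleotides (ASOs). They were taken by gene symbol from the 14884 distinct symbols on the array, and each had 1 feature, the array's summary of the probes for a gene. They were chosen by their lower log2 values on the anti-lncRNA arrays than on the control arrays of MDA-MB-468, in earlier work on these same data. Their values in that comparison are therefore given as a description without a test, and the other comparisons are tested. RNA was measured on 18 microarrays in 6 groups of 3. The HER2-positive line SKBR3 received either a control ASO or one that targets LINC01269, and the triple-negative lines MDA-MB-231 and MDA-MB-468 received either a control ASO or one that targets AL078604.2. Both targets are long non-coding RNAs (lncRNAs). Per the labels, every group, controls included, received GapmeRs at 15 nM with the TransIT-BrCa reagent for 48 h. A GapmeR is an ASO that directs RNase H to cut its target RNA. The 6 groups include no untransfected cells and 1 anti-lncRNA ASO per line. Whether the 3 arrays of a group came from separate cultures is not given, so p-values measure the spread between these arrays, which may be technical.

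CD44 is a cell surface receptor for the matrix polysaccharide hyaluronan. It binds the cytoskeleton through ezrin, radixin and moesin, is cut from the surface by metalloproteases, and is spliced into many forms. Breast cancer cells with much CD44 and little CD24 are known for forming tumours in mice efficiently. SOX2 is an HMG-box transcription factor that acts with OCT4, the product of POU5F1, to hold embryonic stem cells in the pluripotent state. ALDH2 is the mitochondrial aldehyde dehydrogenase that clears acetaldehyde and lipid aldehydes. High aldehyde dehydrogenase activity marks stem-like breast cells, although in breast tissue that activity is mostly credited to cytosolic members of the family such as ALDH1A1 and ALDH1A3.

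The genes lie on 3 chromosomes. In RefSeq on GRCh38.p14, CD44 spans chr11:35139171-35232402 with 44 transcripts, SOX2 spans chr3:181711925-181714436 with 1, and ALDH2 spans chr12:111766933-111817532 with 2. The SOX2 span overlaps that of the long non-coding RNA gene SOX2-OT. One feature per gene cannot tell the splice forms of CD44 apart. The 250 bases before the annotated start are shown for CD44 and SOX2. Of the 3 genes, these 2 were matched in the RefSeq promoter table (GRCh38.p14). Both are on the plus strand and are written 5′ to 3′, with matches to the searched motifs in capitals.
CD44, chr11:35138921-35139170: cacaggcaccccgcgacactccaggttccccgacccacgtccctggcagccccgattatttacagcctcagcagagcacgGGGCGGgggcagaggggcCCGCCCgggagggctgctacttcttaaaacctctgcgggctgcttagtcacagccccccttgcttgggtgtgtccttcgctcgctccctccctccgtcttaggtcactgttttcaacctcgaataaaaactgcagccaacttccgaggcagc
SOX2, chr3:181711675-181711924: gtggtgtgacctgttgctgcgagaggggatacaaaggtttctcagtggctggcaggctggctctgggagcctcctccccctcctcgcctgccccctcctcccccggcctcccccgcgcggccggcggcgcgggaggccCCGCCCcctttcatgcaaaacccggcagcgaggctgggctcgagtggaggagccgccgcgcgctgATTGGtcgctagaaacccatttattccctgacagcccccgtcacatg
Each window, taken to 50 bases after the start, was searched on both strands for 6 motifs. The AP-1 motif was spelled TGANTCA, the E-box of MYC-like factors was spelled CACGTG, the box bound by TBP was spelled TATAAA, the box bound by NF-Y was spelled CCAAT, the GC box bound by SP1 was spelled GGGCGG, and the motif of SOX factors was spelled AACAAAG. No match overlapped another. The CD44 window held 2 matches to GGGCGG, which 45.0% of 35116 promoter windows hold. The SOX2 window held 1 match to GGGCGG and 1 to CCAAT, which 34.6% of windows hold. Neither window held the AP-1 (7.7% of windows), E-box (7.3%), TBP (11.5%) or SOX (5.2%) letters. Both windows had a GC content of 63.3%, with 18 CG dinucleotides for CD44 and 20 for SOX2 against a median of 14. A match to these letters is a description of the window.

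The arrays of a group resembled each other, with correlations between replicates from 0.985 to 0.992. Array medians were 4.56 to 4.63 in SKBR3, 5.41 to 5.43 in MDA-MB-231 and 5.21 to 5.24 in MDA-MB-468 on the deposited log2 scale, so each line appears to have been scaled alone. Line and scaling run then cannot be told apart. The labelled lines were also checked against known markers. MDA-MB-231 is usually described as mesenchymal and poor in EPCAM, an epithelial adhesion gene, and in CD24. In its controls here EPCAM had a mean percentile of 99.2 among all features and CD24 of 99.6. The 9 named epithelial markers had median percentiles of 96.6 in SKBR3, 97.2 in MDA-MB-231 and 97.0 in MDA-MB-468, and the 7 named mesenchymal markers 68.1, 70.0 and 60.1. The 3 named leukocyte markers had medians of 35.6, 43.7 and 43.3, and the 2 named fibroblast and endothelial markers 37.6, 47.6 and 43.0. The 3 named basal markers had medians of 72.0, 89.2 and 85.8, and the 7 named luminal HER2 markers 83.6, 82.9 and 83.2. The epithelial and luminal medians were close across the lines and the basal median was lowest in SKBR3. ERBB2 has no named feature. GRB7, STARD3 and PGAP3 were lower in SKBR3 (79.1, 83.6 and 70.9) than in MDA-MB-231 (81.3, 84.9 and 75.1). KRT18, ORMDL3, AGR2 and SPDEF were higher in SKBR3. Of the basal markers, EGFR was highest in SKBR3 (99.0), and KRT5 and KRT14 were lowest there. These markers do not settle which line is HER2-positive, and each line name below means the arrays labelled with it. Neither LINC01269 nor AL078604.2 has a named feature, and their levels were not analysed here.

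Among the control arrays CD44 stood highest in MDA-MB-231, SOX2 in MDA-MB-468, and ALDH2 lowest in MDA-MB-231, by their percentile among all features of an array. The percentile of a feature depends on how well its probes hybridise as well as on its RNA, so it is compared here between lines and not between genes. CD44 in the MDA-MB-231 controls was at percentiles of 98.2, 98.4 and 98.4 on the 3 arrays. The MDA-MB-468 controls came next at 97.9, 98.1 and 98.1, and the SKBR3 controls were lowest at 97.1, 97.2 and 97.5. The 3 lines did not overlap for CD44. ALDH2 ran from 93.4 to 94.1 in the MDA-MB-468 controls and from 93.6 to 93.8 in the SKBR3 controls, which overlapped, and from 90.3 to 91.2 in the MDA-MB-231 controls, below both. SOX2 ran from 49.8 to 51.7 in the MDA-MB-468 controls, above 43.2 to 44.3 in MDA-MB-231 and 42.2 to 44.8 in SKBR3, which overlapped. The MDA-MB-468 controls are part of the comparison that chose the genes, which favours high values there. Their standing against the other lines is therefore a description.

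**Figure D1:**
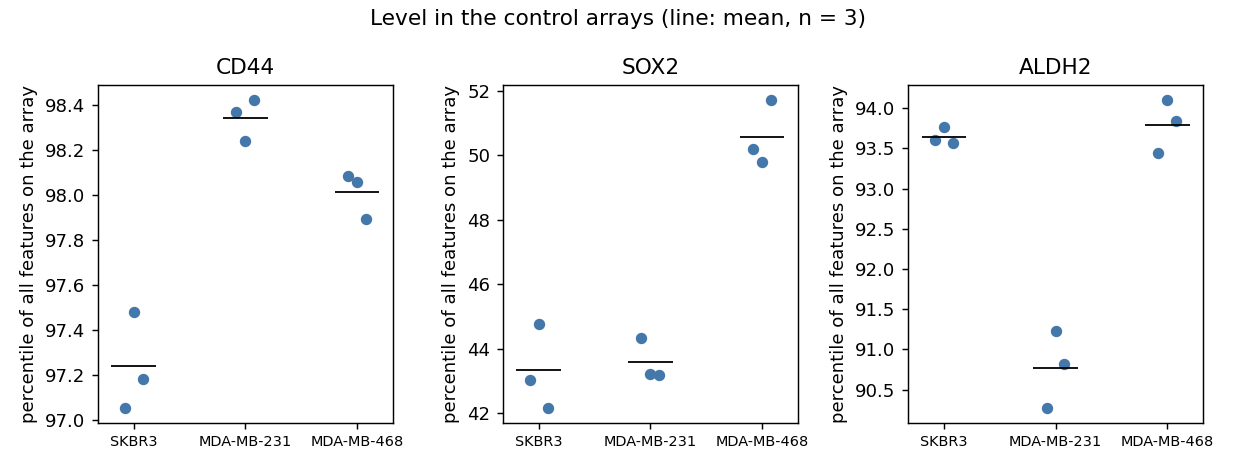
Percentile of CD44, SOX2 and ALDH2 among all 53617 features on each control array (points) of SKBR3, MDA-MB-231 and MDA-MB-468, with the mean of 3 arrays as a line. Each panel has its own vertical scale, and CD44 is highest in MDA-MB-231, SOX2 in MDA-MB-468, and ALDH2 lowest in MDA-MB-231. The MDA-MB-468 controls are part of the comparison that chose the genes.

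The SKBR3 and MDA-MB-231 controls, neither of which served to choose the genes, were compared after quantile normalization of all arrays. CD44 was 1.52-fold higher in MDA-MB-231, with a SKBR3 minus MDA-MB-231 difference of -0.60 log2 and an SE of 0.0785 with 3 arrays a group (limma adjusted p = 3.16e-05, over alternatives 8.77e-11 to 0.000314). ALDH2 was higher in SKBR3 by 0.59 ± 0.169 log2 (limma adjusted p = 0.014, over alternatives 0.014 to 0.213). SOX2 differed by -0.01 log2 with a 95% interval from -0.23 to 0.20 and did not pass (limma adjusted p = 0.934), and it entered the test through the MDA-MB-468 controls rather than either of these groups. On the deposited scale, where the medians of the lines differ, CD44 was at -1.47 log2, SOX2 was at -0.87 and passed (limma adjusted p = 8.31e-07), and ALDH2 turned to -0.22 (limma adjusted p = 0.213). The size of the CD44 difference, the SOX2 call and the ALDH2 direction therefore rest on a common scale for the lines. Of 29855 features tested, 31.5% differed between these 2 lines, so a difference in CD44 and ALDH2 is common among genes here. The MDA-MB-468 controls had quantile-normalized means of 10.73 for CD44, 5.11 for SOX2 and 9.25 for ALDH2, beside 10.94, 4.75 and 8.62 in MDA-MB-231 and 10.34, 4.74 and 9.22 in SKBR3.

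CD44 was lower after the anti-AL078604.2 ASO in both triple-negative lines, at 80.1% of control in MDA-MB-231 and 79.8% in MDA-MB-468, and stood at 103% of control in SKBR3 with the anti-LINC01269 ASO. In MDA-MB-231 the control arrays read 11.28, 11.24 and 11.35 log2 and the anti-AL078604.2 arrays 11.03, 10.88 and 11.00. All 3 treated arrays lay below all 3 controls, with a gap of 0.21 log2. The difference was -0.32 ± 0.0774 log2 (SE, n = 3 per group), with a 95% interval from -0.48 to -0.16. It did not pass the test over all features (limma adjusted p = 0.116, over alternatives 0.00115 to 0.488). With array weights it did, at -0.36 log2, in a fit that called 2413 of 29855 features. The main fit of this comparison called 51 features, or 0.171%, with 0.0737% lower and 0.0971% higher. The calls were 0 without any 1 of 5 arrays and 532 without treated replicate 1. At an unadjusted p under 0.05 the main fit held 9.35% of features, CD44 among them. The treated arrays lay wholly below the controls for 7.87% of all features tested, and 3.75% of features were as low as CD44 or lower.

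In MDA-MB-468 the CD44 control arrays read 10.90, 10.90 and 10.81 log2 and the anti-AL078604.2 arrays 10.35, 10.60 and 10.68. The treated arrays again lay below the controls, with a gap of 0.13 log2, and treated replicate 1 was the lowest. The difference of -0.33 ± 0.0774 log2 is a description, since it helped choose the gene. In SKBR3 the control arrays read 9.75, 9.93 and 9.78 log2 and the anti-LINC01269 arrays 9.94, 9.81 and 9.84. The groups overlapped and the difference was 0.04 ± 0.0774 log2 (limma adjusted p = 0.919), with a 95% interval from -0.12 to 0.205. In RNA from bulk cells, fewer CD44-rich cells and less CD44 RNA per cell cannot be told apart.

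**Figure D2:**
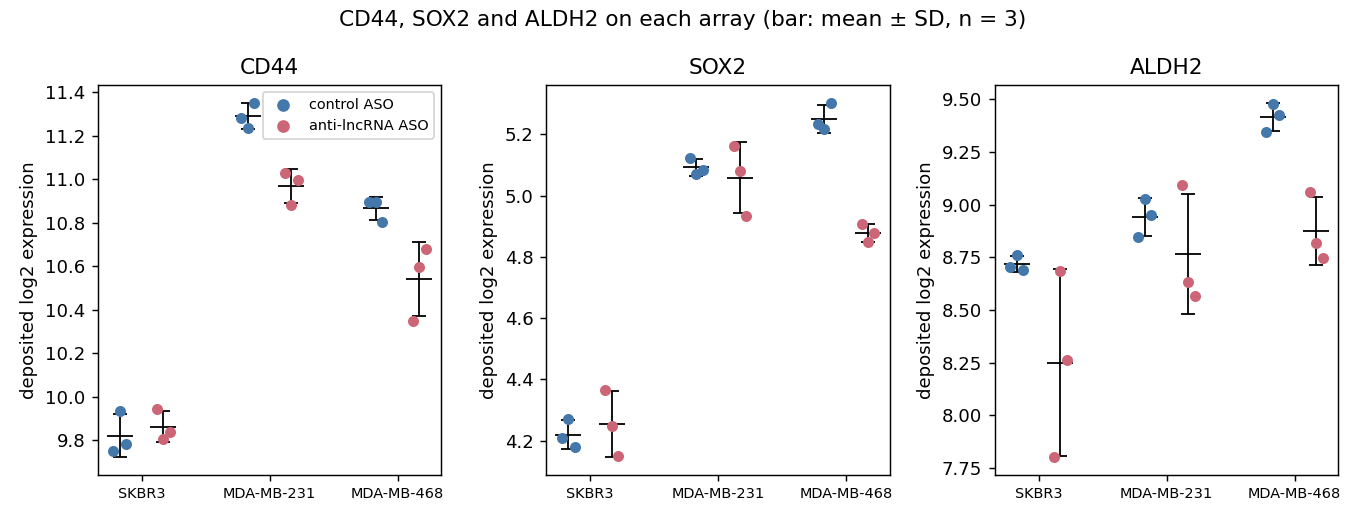
Deposited log2 expression of CD44, SOX2 and ALDH2 on each of 18 arrays, by line and ASO, with the mean and SD of 3 arrays as bars. Levels can be read between ASOs within a line but not between lines. The anti-lncRNA arrays of MDA-MB-468, the comparison that chose the genes, lie below their controls for all 3 genes. Those of MDA-MB-231 do so for CD44, and those of SKBR3 for ALDH2, by 0.0015 log2. Treated arrays lay wholly below controls for 8.5% of all features in MDA-MB-468, 7.87% in MDA-MB-231 and 4.26% in SKBR3.

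SOX2 was lower after the ASO in MDA-MB-468, at 77.2% of control, and its groups overlapped in the other lines. The MDA-MB-468 control arrays read 5.23, 5.22 and 5.30 log2 and the anti-AL078604.2 arrays 4.91, 4.85 and 4.88. The groups were 0.31 log2 apart at their nearest, and the difference was -0.37 ± 0.103 log2 (SE), again as a description. The treated arrays stood at percentiles of 42.1 to 43.3, beside 43.2 to 44.3 in the MDA-MB-231 controls and 42.2 to 44.8 in the SKBR3 controls.

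The SOX2 signal was at or under the median of all features in nearly every group. Features were tested when their mean exceeded the median feature in at least 1 group, and SOX2 did so in 1 of 6, the MDA-MB-468 controls, by 0.04 log2. It therefore entered the test through the group in which it was high. Whether SOX2 RNA was present in the other groups cannot be read from these values, because no background probes were marked. In MDA-MB-231 the controls read 5.12, 5.07 and 5.08 log2 and the anti-AL078604.2 arrays 5.16, 5.08 and 4.93, which overlap. The difference was -0.03 ± 0.103 log2 (limma adjusted p = 0.966), with a 95% interval from -0.25 to 0.18. In SKBR3 the controls read 4.21, 4.27 and 4.18 log2 and the anti-LINC01269 arrays 4.37, 4.25 and 4.15, which also overlap. The difference was 0.03 ± 0.103 log2 (limma adjusted p = 0.954), with a 95% interval from -0.18 to 0.25. SOX2-OT, which overlaps SOX2, stayed under the median feature in all groups and was not tested. Its means in MDA-MB-468 were 3.49 log2 in controls and 3.50 after the ASO, and in SKBR3 2.73 and 3.07.

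ALDH2 stood at 68.7% of control in MDA-MB-468, 72.3% in SKBR3 and 88.5% in MDA-MB-231. Its treated arrays differed widely among themselves in SKBR3 and MDA-MB-231. In MDA-MB-468 the controls read 9.34, 9.48 and 9.43 log2 and the anti-AL078604.2 arrays 9.06, 8.82 and 8.75. The groups were 0.28 log2 apart at their nearest, the difference was -0.54 ± 0.168 log2 (SE), and 0.723% of tested features were as low or lower. This too is a description, and the share as low is set by the choice of ALDH2 for its low value here.

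In SKBR3 the ALDH2 controls read 8.71, 8.76 and 8.69 log2 and the anti-LINC01269 arrays 7.80, 8.69 and 8.26. Treated replicate 2 lay 0.0015 log2 under the lowest control, replicate 1 far below, and replicate 3 between them. The SD was 0.0379 log2 among controls and 0.443 among treated arrays. The difference was -0.47 ± 0.168 log2 (SE, n = 3 per group), with a 95% interval from -0.82 to -0.11, and did not pass (limma adjusted p = 0.439, over alternatives 0.0421 to 0.959). The SE uses 1 spread per gene pooled over all 6 groups, so this interval does not measure the spread of the SKBR3 arrays. Fitted to the SKBR3 arrays alone, the same difference had a limma adjusted p of 0.835. Without anti-LINC01269 replicate 2 it was -0.69 log2 and passed (limma adjusted p = 0.0421), and without anti-LINC01269 replicate 1 it was -0.24. limma called 0 of 29855 features in SKBR3 (0%), while 2736 (9.16%) had an unadjusted p under 0.05, 3.79% lower and 5.37% higher. Without treated replicate 2 the calls were 231. The treated arrays lay wholly below the controls for 4.26% of features.

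In MDA-MB-231 the ALDH2 controls read 8.85, 9.03 and 8.95 log2 and the anti-AL078604.2 arrays 9.10, 8.63 and 8.57. Treated replicate 1 lay above all controls and the other treated arrays below them. The difference was -0.18 ± 0.168 log2 (limma adjusted p = 0.841), with a 95% interval from -0.53 to 0.18. Without treated replicate 1 it was -0.34 log2 and without treated replicate 3 it was -0.08.

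**Figure D3:**
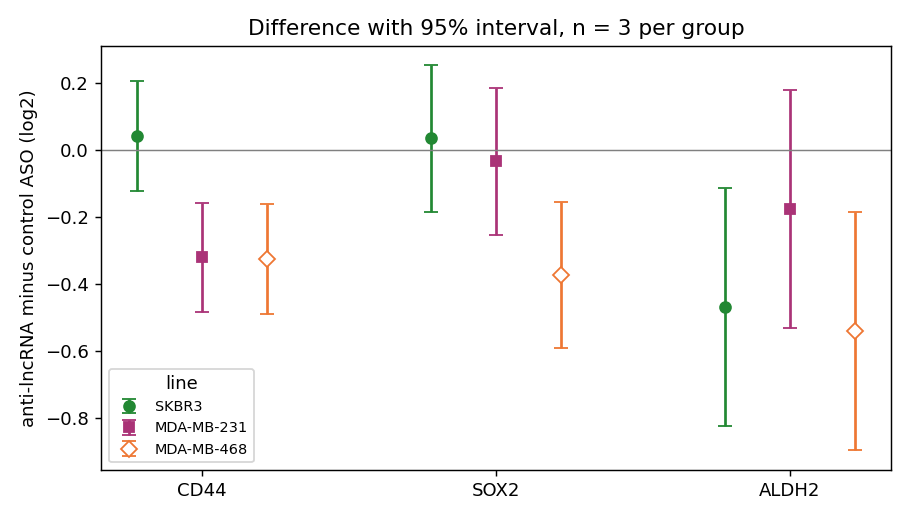
Difference in log2 expression between the anti-lncRNA ASO and the control ASO of each line for CD44, SOX2 and ALDH2, with the 95% interval of the limma fit (n = 3 per group). Open diamonds mark MDA-MB-468, the comparison that chose the genes, and the intervals of CD44 in MDA-MB-231 and ALDH2 in SKBR3 lie below 0 before any adjustment over features. Each interval uses a spread pooled over all 6 groups, which is narrower than that of the treated SKBR3 arrays for ALDH2.

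MDA-MB-231 and MDA-MB-468 shared the ASO target and had separate controls, so their values can be set side by side. CD44 stood at -0.32 log2 in MDA-MB-231 and -0.33 in MDA-MB-468, ALDH2 at -0.18 and -0.54, and SOX2 at -0.03 and -0.37. The difference between the lines was not tested for these genes, because the MDA-MB-468 values chose them. In MDA-MB-468 limma called 2 of 29855 features, or 0.0067%, and 0 of these were lower, so the 3 genes were not among them. Leaving out treated replicate 3 gave 12 calls, control replicate 1 gave 1, and each other array 0. Lower features with an unadjusted p under 0.05 numbered 1564, and treated arrays lay wholly below controls for 8.5% of features. The median difference of all features was -0.0035 log2 in MDA-MB-468 and 0.01 in both other comparisons.

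Other genes known for stem cell or aldehyde dehydrogenase roles lay on both sides of control in MDA-MB-468. Of 42 genes listed, 27 have a named feature and 21 were tested, 18 besides the 3 described. Among these 18 in MDA-MB-468, 8 were below 0 and 10 above, with a median difference of 0.04 log2, and limma called 0 in either direction. At an unadjusted p under 0.05, 0 were lower and 2 higher, where all features gave 5.24% and 5.25%. Those 2 were BMP4, a secreted growth factor of the TGF-beta family (0.58 log2), and the Notch ligand gene DLL1 (0.34 log2). Both stand next to the 3 genes in size, BMP4 beside ALDH2 (-0.54) and DLL1 between SOX2 (-0.37) and CD44 (-0.33), with the opposite sign. The DLL1 means of 4.76 and 5.10 log2 lay under the median feature. LGR6, a receptor for R-spondins, was the next lower gene, with -0.25 log2. Treated arrays lay wholly below controls for 2 of the 18 and wholly above for 4, where all features gave 8.5% and 8.41%.

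In MDA-MB-231 the same 18 genes had a median difference of 0.02 log2, 8 below 0 and 10 above, with 0 called, and at an unadjusted p under 0.05, 0 were lower and 4 higher, where all features gave 4.45% and 4.9%. Treated arrays lay wholly below controls for 1 of the 18 and wholly above for 3, where all features gave 7.87% and 9.28%. The 1 below was PROM1, which encodes the surface marker prominin-1 (-0.15 log2, limma adjusted p = 0.578). Leading values were those of the pluripotency factor genes KLF4 (0.42 log2, limma adjusted p = 0.232) and SALL4 (0.39, adjusted p = 0.305) and of MYC (0.41, adjusted p = 0.394). In SKBR3 the median was 0.02 log2, with 7 below 0 and 11 above, and 0 called. At an unadjusted p under 0.05, 0 were lower and 2 higher, where all features gave 3.79% and 5.37%. Those 2 were MYC (0.44 log2, limma adjusted p = 0.45) and the Notch ligand gene JAG1 (0.24, adjusted p = 0.498). Treated arrays lay wholly below controls for 1 of the 18 and wholly above for 2, where all features gave 4.26% and 7.28%. CD24, the surface protein set against CD44 in sorting, was at -0.06 log2 (limma adjusted p = 0.708).

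**Figure D4:**
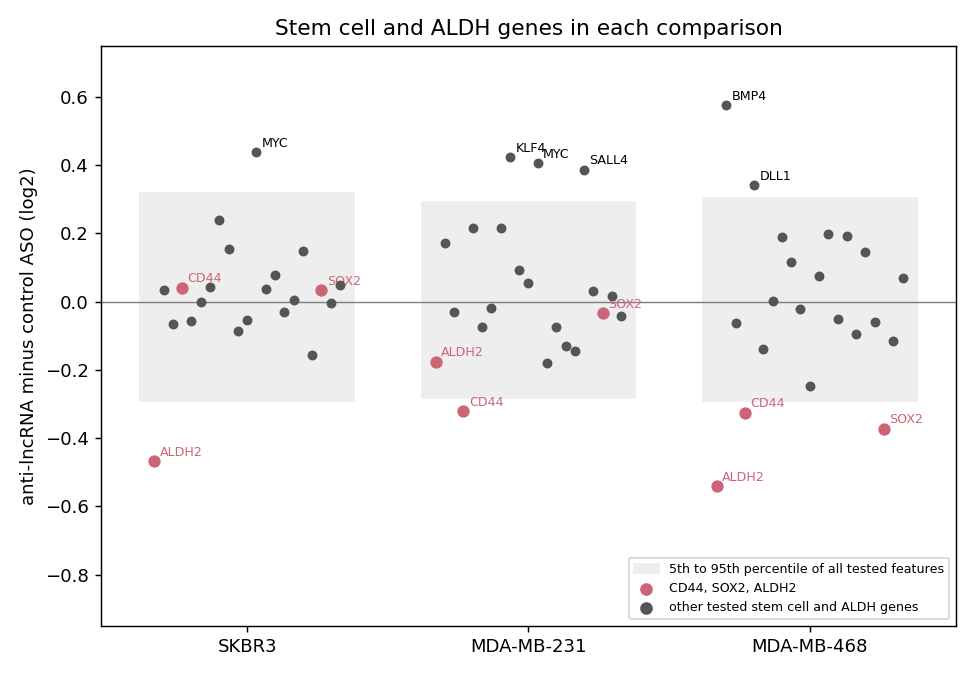
Difference in log2 expression between the anti-lncRNA ASO and the control ASO for the 21 tested stem cell and ALDH genes in each line, with CD44, SOX2 and ALDH2 in red and the 5th to 95th percentile of all tested features as a grey band. Genes beyond a difference of 0.33 are named, and the remaining 18 genes spread on both sides of 0, from -0.25 to 0.58 in MDA-MB-468.

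Genes that bind, cut, splice or signal with CD44 were described next. Of 45 listed, 33 are named and 28 were tested. In MDA-MB-231, where CD44 was lower, their median difference was -0.08 log2, with 19 below 0 and 9 above, and limma called 0. At an unadjusted p under 0.05, 5 were lower and 2 higher, where all features gave 4.45% and 4.9%. NF2, whose product merlin binds the tail of CD44, had the lowest difference, with means of 9.03 log2 in controls and 8.33 after the ASO (-0.70 ± 0.136, SE, limma adjusted p = 0.0511). ADAM17, a protease gene whose product sheds surface proteins, stood at -0.27 log2 (limma adjusted p = 0.155), and the Wnt coreceptor gene LRP6 at -0.31 (adjusted p = 0.195). Treated arrays lay wholly below controls for 8 of the 28 genes, these 3 among them, and wholly above for 4, where all features gave 7.87% and 9.28%.

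In MDA-MB-468 the 28 CD44-related genes had a median difference of -0.02 log2, with 17 below 0, 11 above and 0 called by limma. At an unadjusted p under 0.05, 3 were lower and 2 higher, where all features gave 5.24% and 5.25%. Treated arrays lay wholly below controls for 4 of the 28, NF2 and NCSTN among them, and wholly above for 1, where all features gave 8.5% and 8.41%. NF2 was again among the lowest, at -0.49 ± 0.136 log2 (SE), with NCSTN, a subunit of the gamma-secretase that cleaves the CD44 stub, at -0.31. The 1 wholly above was HMMR, another hyaluronan receptor gene (0.27). The proteoglycan gene SRGN was at 0.29, but its groups overlapped. Its means of 4.43 and 4.73 log2 lay under the median feature. In SKBR3, where the CD44 groups overlapped, the median was 0.02 log2 with 12 below 0, 16 above and 0 called. LAYN, a further hyaluronan receptor gene (0.45 log2, limma adjusted p = 0.338), ESRP1, which promotes inclusion of CD44 variable exons (-0.32, 0.437), the moesin gene MSN (0.21, 0.516) and ADAM17 (0.16, 0.53) had the smallest p.

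Partners of SOX2 and genes of the pluripotency network gave no call in any line, where all features gave 0% in SKBR3, 0.171% in MDA-MB-231 and 0.0067% in MDA-MB-468. Of 36 listed, 33 are named and 21 were tested, with median differences of 0.07 log2 in SKBR3, 0.04 in MDA-MB-231 and 0.07 in MDA-MB-468. In MDA-MB-468, where SOX2 was lower, 8 were below 0 and 13 above. The largest differences were those of PRDM14 (0.30 log2) and TBX3 (0.27), both transcription factor genes of early embryos, and of the cyclin gene CCND1 (-0.23). Treated and control arrays overlapped for each of these, and PRDM14 lay under the median feature in both groups. POU5F1, the partner of SOX2 in stem cells, stood at 0.19 log2 and also lay under the median feature in both groups. Of 19 SOX family genes named, 14 were tested, 13 besides SOX2. Their differences in MDA-MB-468 ran from -0.11 to 0.18 log2 with 5 below 0 and 8 above, with SOX2, chosen for its low value, below that range. In MDA-MB-231 SOX13 (0.23 log2, limma adjusted p = 0.23) and SOX4 (0.25, adjusted p = 0.411) had the smallest p, and the median of the 13 was 0.14 log2. SKBR3 gave a median of 0.0013 log2.

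Genes of aldehyde, ethanol and retinoid metabolism beside ALDH2 also gave no call. Of 38 listed, 13 are named and 11 were tested, and ALDH2 is the 1 coding gene of the aldehyde dehydrogenase family with a named feature. In SKBR3, 10 of the 11 lay below 0 with a median of -0.10 log2, and the peroxide-degrading catalase gene CAT (-0.14 log2, limma adjusted p = 0.645), the retinoic acid binding protein gene CRABP2 (-0.10, adjusted p = 0.672) and the reductase gene DHRS4 (-0.26, adjusted p = 0.672) had the smallest p. In MDA-MB-231 the median was -0.04 log2, and the retinol uptake receptor gene STRA6 was at 0.50 log2 (limma adjusted p = 0.239). In MDA-MB-468 the median was -0.0071 log2, with 6 below 0 and 5 above. RDH13, a retinol dehydrogenase of mitochondria, was at -0.25 log2 and ACSS1, which makes acetyl-CoA from acetate in mitochondria, at -0.17. Over all 5 lists, 86 distinct genes were tested besides the 3, and limma called 0 of them in any of the 3 comparisons. All features gave 0% in SKBR3, 0.171% in MDA-MB-231 and 0.0067% in MDA-MB-468, so 0 calls is near that share.

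Likeness between genes was measured by Pearson's correlation over all 18 arrays after each line's mean was subtracted, as a description. Arrays of a line share its scaling, and treated and control arrays both enter. CD44 was most like DHX35, an RNA helicase gene (r = 0.95), the mitochondrial protease gene AFG3L2 (0.91), HERC2P10 (0.90), the nuclear pore gene NUP155 (0.90) and GDAP2 (0.89). SOX2 was most like CMTM4 (0.88), FOXRED2 (0.87), the cohesin loader gene MAU2 (0.87), TSPAN14 (0.87) and the nuclear pore gene NUP210 (0.85).

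ALDH2 was most like C1orf210 (0.94), the formin gene FHOD1 (0.94), PTTG1IP (0.94), the lysosomal protease gene CTSD (0.94) and SLC33A2 (0.93). With each group's mean subtracted instead, so that the ASO difference is removed, r with ALDH2 was still 0.88 to 0.94 for these 5, while it was 0.69 to 0.80 for the 5 genes like CD44. The 5 genes were picked as the highest r of 12003 named features on these same arrays, where the spread of ALDH2 within treated groups is large, so the choice largely sets these values. The lowest r over all 29855 features tested, named or not, was -0.94 for ALDH2, -0.94 for CD44 and -0.88 for SOX2. Among the 3 genes themselves, r after subtracting the line's mean was 0.61 for CD44 and SOX2, 0.47 for ALDH2 and SOX2 and 0.29 for ALDH2 and CD44. With the group's mean subtracted it was 0.11, 0.03 and -0.33. The 3 genes were chosen as lower on the treated arrays of MDA-MB-468, which enter here, so a positive r that drops when group means are removed is built in by that choice.

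The nearest named genes on either side did not pass in any line. Of 13 neighbours, 9 were tested, and limma called 0 of 27 comparisons, with a smallest adjusted p of 0.291. Over all features limma called 0% in SKBR3, 0.171% in MDA-MB-231 and 0.0067% in MDA-MB-468, so 0 calls is near that share. BRAP, 81.0 kb before ALDH2, was at 0.18 log2 in SKBR3, 0.26 in MDA-MB-231 and 0.25 in MDA-MB-468. MAPKAPK5, a stress kinase gene 24.7 kb after ALDH2, was at -0.04, 0.09 and 0.09 log2 in the same order. The epithelial transcription factor gene EHF, 475.9 kb before CD44, was at -0.07, -0.09 and 0.08 log2, and APIP, 222.8 kb before it, at -0.03, -0.05 and 0.07. On the far side of CD44, FJX1 was at 0.08, -0.10 and -0.19 log2. TMEM116, 113.8 kb after ALDH2, was at -0.36, -0.17 and -0.01 log2, and ATXN2, 167.3 kb before it, at -0.11, 0.04 and 0.05. MCCC1, 1300.8 kb after SOX2, was at 0.02, -0.27 and -0.16 log2 and had the smallest p, in MDA-MB-231, and TTC14, 1093.6 kb before SOX2, was at -0.06, -0.02 and 0.09.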

How the data were processed

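The labels place RNA from 18 samples of established breast cancer lines on Affymetrix Human Gene 2.0 ST arrays. Per the submitters' processing notes, the authors used Transcriptome Analysis Console. Its version, the probe summarization and the build are not given in the sources used here. Expression was read as log2 from the range of the deposited values. An array gives no count of molecules, and the number of arrays limits the precision. GEO's platform annotation named 16098 of 53617 features, with symbols updated by gene ID from RefSeq GRCh38.p14. Features whose mean exceeded the median feature in at least 1 of 6 groups were tested (29855). limma 3.58.1 in R 4.3.3 fitted group means to all 18 arrays (12 residual degrees of freedom) with an intensity trend. P-values were two-sided and Benjamini-Hochberg adjusted over all features tested, at 0.05. The procedure was tested on simulated data. Lines were compared after quantile normalization. Named genes were the 3 genes, the 5 features most like each, and from each list up to 4 genes with the smallest p, or in MDA-MB-468 the largest differences. LGR6, PROM1 and the neighbours fall outside this rule and were chosen after their values were seen. The genes and lists were chosen with earlier results of these data known. Alternatives were the line alone, no trend, no filter, other scalings, a replicate block, array weights and each array left out.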

Additional observations from a re-analysis of the deposited data

Results flagged for a closer look

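KLF2, a transcription factor gene of the SOX2 network list, lay on opposite sides of control in the 2 lines given the anti-AL078604.2 ASO. It was picked for this pattern from the 3 genes and the 86 list genes tested, so its values here are a description. Treated arrays lay wholly above controls for 9.28% of all features in MDA-MB-231 and wholly below for 8.5% in MDA-MB-468. The share of features with both was not counted. In MDA-MB-231 the treated arrays read 7.02 to 7.09 log2 and the controls 6.80 to 6.84, and in MDA-MB-468 the treated arrays read 6.43 to 6.52 and the controls 6.58 to 6.75. The differences of 0.24 and -0.17 log2 were 0.40 ± 0.145 log2 apart (SE), and the limma test of that difference did not pass over all features (adjusted p = 0.998, n = 3 per group). The unadjusted p of that limma test was 0.0128, and the choice of KLF2 for its pattern favours a small value.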

How the results depend on the processing

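CD44 and ALDH2 in SKBR3 and MDA-MB-231 kept their direction against control in each of 13 alternatives. For CD44 in SKBR3 that direction is not resolved from no difference. It ran from 0.0005 to 0.0978 log2 with single arrays left out, and its limma adjusted p over alternatives from 0.779 to 0.9999. In MDA-MB-468 all 3 genes also stayed below control. They were chosen as lower there and their groups do not overlap, so that direction is largely set by the choice. Single arrays left out gave -0.35 to -0.28 log2 for CD44 in MDA-MB-231, -0.69 to -0.24 for ALDH2 in SKBR3, -0.0211 to 0.0864 for SOX2 in SKBR3 and -0.0856 to 0.0283 for SOX2 in MDA-MB-231. SOX2 between SKBR3 and MDA-MB-231 controls ran from -0.0498 to 0.0159. Calls over all features ran from 0 to 231 in SKBR3 (most without treated replicate 2), 0 to 532 in MDA-MB-231 (treated replicate 1) and 0 to 12 in MDA-MB-468 (treated replicate 3). With array weights, CD44 in MDA-MB-231 passed at -0.36 log2 (limma adjusted p = 0.00115), SOX2 in SKBR3 turned to -0.0093, and calls numbered 2413 in MDA-MB-231 and 5199 in MDA-MB-468; these weights ran from 0.377 to 9.62 between arrays, and the cause was not tested. On deposited values, between the same controls, CD44 was -1.47 (from -0.60), SOX2 was -0.87 and passed, and ALDH2 was -0.22, as the lines' scales differ. The line alone gave 3 calls in MDA-MB-231 and 0 in MDA-MB-468, no trend 26 in MDA-MB-231, and no filter 28 in MDA-MB-231 and 1 in SKBR3. Deviations of same-numbered arrays correlated from -0.12 to 0.10, so the numbers were not taken to pair arrays. With a replicate block the calls were 0 in MDA-MB-231 and 0 in MDA-MB-468, CD44 in MDA-MB-231 kept -0.32 (limma adjusted p = 0.262), and no call on the 3 genes changed. The mean of all features of a symbol was not run, since each gene has 1 feature.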
